A study of Zea mays with 14 samples.

Results

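Root hairs of maize seedlings labelled zmlrl5 were set against wild type root hairs of the same inbred line, W22, across 39305 gene IDs in 4 libraries, 2 of each genotype. They are 4 of the 14 libraries of the series, chosen by genotype, cultivar and tissue as labelled. In zmlrl5 hair, transcripts of nitrite reductase, of sum1, which serves its siroheme cofactor, of the ferredoxin gene FDX6 and of the high-affinity nitrate transporter nrt2.2 fell. Named ribosomal protein genes were lower in 24 of 34 cases (12.4% of all genes tested). Transcripts of the soluble invertase gene ivr2 and of the sucrose synthase gene SH-1 were lower by more than 2-fold. Of 28 aquaporin genes 10 were higher (10.1% of all genes tested) and 5 lower. The higher ones included 8 of 9 named as plasma membrane aquaporins, a subgroup singled out after its values were seen. The BURP-domain gene BURP3, a dehydrin gene and the ethylene response factor genes EREB179 and ERF1 were also higher.

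A root hair is a tip-growing outgrowth of a single epidermal cell that takes up water, nitrate, phosphate and other ions. In Arabidopsis and rice, the LRL group of bHLH (basic helix-loop-helix) transcription factors promotes hair outgrowth, and the name zmlrl5 points to that group. Nitrate taken up by a hair is reduced to nitrite and then, by nitrite reductase with electrons from ferredoxin, to ammonium, which glutamine synthetase joins to glutamate.

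All plants were seedlings aged 3 days, raised in moist paper, and the hairs were scraped off after freezing in liquid nitrogen. The zmlrl5 hair libraries carry the genotype label knock down, without an allele or a construct, and the wild type hair libraries carry WT. The cultivar label gives W22 for these 4 libraries, whereas the growth protocol gives B73 for all samples. Other libraries served for comparison: B73 zmlrl5 root, labelled knock out, with B73 wild type root, and B73 root hair with B73 root. The target transcript was not analysed, because no ID could be paired with the name LRL5, and so it did not check the labels. The labels do not say whether the libraries of a genotype are separate plants or pools, and p-values therefore reflect a spread between libraries that may be technical.

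The zmlrl5 hair libraries held 19319441 and 16626955 counts, and the wild type hair libraries 17731689 and 24177435. CPM stands for counts per library size scaled by TMM, and 3 counts corresponded to 0.155 to 0.180 CPM in zmlrl5 hair and 0.124 to 0.169 CPM in wild type hair before TMM. Across genes, which are not independent replicates, log2 CPM correlated between replicates with Pearson's r = 0.981 in zmlrl5 hair and 0.983 in wild type hair. Replicates differed beyond sampling noise, with a chi-square per gene of 4.60 in zmlrl5 hair and 4.45 in wild type hair. On the first principal component, with 56.4% of the variance, the zmlrl5 libraries lay at 48.8 and 61.2 and the wild type libraries at -57.9 and -52.0. The root hair gene rth3 had 136 and 127 CPM in zmlrl5 hair, against 127 and 141 CPM in wild type hair, and so overlapped. Of the 4 roothairless genes described below, which include rth3, 1 was lower and 3 were not called. Together they summed to 736 and 678 CPM in zmlrl5 hair, against 744 and 882 CPM in wild type hair, without overlap.

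By the quasi-likelihood test of edgeR, 5703 of 25303 genes (22.5%) passed a Benjamini-Hochberg adjusted p of 0.05 and are called changed. In zmlrl5 hair 2563 genes (10.1%) were higher and 3140 (12.4%) were lower. Past a 2-fold change, 876 (3.46%) were higher and 1144 (4.52%) were lower. The 2 libraries of each genotype did not overlap in 5660 of the called genes, and in 53.9% of all genes tested (13626 of 25303). Lack of overlap was also a condition for naming genes by the size of their change. Where it is stated below, it describes the values and adds nothing to the calls. With all 14 libraries in a single fit, 1223 were higher and 2010 lower, and smaller changes lost their call there, among them Actin-7 (GRMZM2G067985), Cel4, CNX5, PIP2-1, PR10, RCP1, RPL10, adh1, adh2, asn3, mha2, rbohB, ys1 and PER2. With so many genes called, each count below is read against these shares, and the log2 change had a median of -0.01 over all genes tested. Bulk counts cannot tell fewer cells of a type from less RNA per cell.

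**Figure D1:**
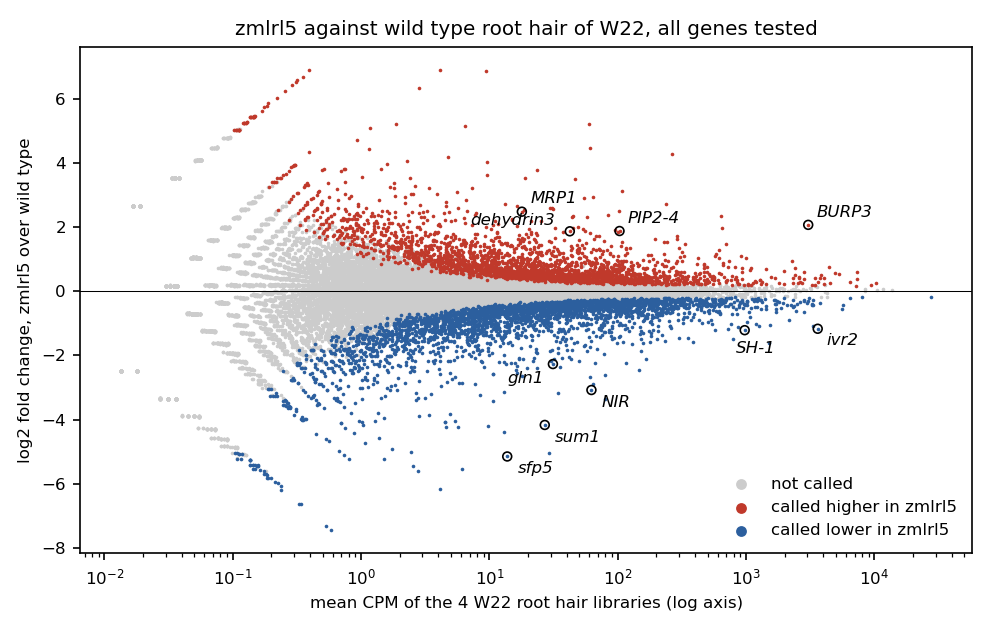
Each point is a gene, with its mean CPM over the 4 W22 root hair libraries on a log axis and its log2 fold change of zmlrl5 over wild type on the vertical axis; red and blue mark genes called higher and lower in zmlrl5. Calls reach across the range of levels, from NIR and sum1 among the strongest named decreases to BURP3 among the most abundant transcripts that rose.

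Of the 4 roothairless genes, GRMZM2G436299 was lower, and the other 3 were not called. The table of names pairs only rth3, which encodes a COBRA-like wall protein, with its ID. GRMZM2G436299 had 184 and 153 CPM in zmlrl5 hair, against 245 and 304 CPM in wild type hair, a log2 change of -0.71 ± 0.100 (SE, adjusted p = 2.62e-06). The zmlrl5 libraries both lay below the wild type libraries. GRMZM2G426953, with 400.0 and 379.8 CPM in zmlrl5 hair, against 358 and 419.9 CPM in wild type hair, and GRMZM2G099056, with 16.4 and 18.7 CPM in zmlrl5 hair, against 13.2 and 16.4 CPM in wild type hair, had overlapping groups.

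Among 15 genes tested in the list of actin and tip growth, 6 were lower (12.4% of all genes tested) and 1 was higher (10.1% of all genes tested). Their median log2 fold change was -0.29, and 3 were lower with all 14 libraries in the fit. The list was matched by name alone and holds IDs named abp1, abp4 and abp5, whose link to actin was not checked. PRO4, an actin-binding profilin, had 766 and 776 CPM in zmlrl5 hair, against 1087 and 1138 CPM in wild type hair, a fold change on the log2 scale of -0.53 ± 0.068 (SE, adjusted p = 4.65e-07). Actin-7 (GRMZM2G067985) had 213 and 211 CPM in zmlrl5 hair, against 261 and 271 CPM in wild type hair, a log2 change of -0.33 ± 0.073 (SE, adjusted p = 0.000987). Both fell without overlap, by less than 2-fold, while a second ID named Actin-7, GRMZM2G082484, was higher at the low level of 4.77 and 4.304 CPM in zmlrl5 hair, against 0.868 and 1.88 CPM in wild type hair. Profilin and actin genes have close copies, so their reads may be divided between copies.

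Of 9 genes for ROP GTPases and NADPH oxidases, which set the site of tip growth, 1 was higher and 0 were lower in edgeR. No member was lower at an unadjusted p under 0.05 or in DESeq2, and 1 was without zmlrl5 replicate 1. The called gene, rbohB, had 157 and 177 CPM in zmlrl5 hair, against 139 and 128 CPM in wild type hair, a log2 change of 0.32 ± 0.085 (SE, adjusted p = 0.00555). Without wild type replicate 2 (0.21) or zmlrl5 replicate 2 (0.20) it was not called. In wall synthesis, 5 of 13 genes of the cellulose synthase family were higher, among them CesA-7 (0.44 ± 0.075) and CesA-4 (0.43 ± 0.072, log2 fold change ± SE), and 0 were lower, whether adjusted, unadjusted or in DESeq2. Without zmlrl5 replicate 1 the family had 2 higher members, and with all 14 libraries in the fit it had 0. Cel4, a cellulase gene, was lower with 2649 and 2396 CPM in zmlrl5 hair, against 3129 and 3099 CPM in wild type hair, a log2 change of -0.30 ± 0.068 (SE, adjusted p = 0.00118). The expansins, which loosen walls during elongation, split: expa1 had 45.8 and 42.7 CPM in zmlrl5 hair, against 84.7 and 76.2 CPM in wild type hair and fell by 0.86 on the log2 scale, whereas expB4 had 3.23 and 4.002 CPM in zmlrl5 hair, against 1.01 and 0.969 CPM in wild type hair and was higher.

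Of 5 genes tested in the list of nitrate and nitrite reduction, 3 were lower and 1 was higher. NIR, nitrite reductase, had 14.2 and 12.2 CPM in zmlrl5 hair, against 108 and 115 CPM in wild type hair, a log2 change of -3.08 ± 0.13 (SE, adjusted p = 7.82e-18). Next to it, sum1, a methyltransferase gene of siroheme synthesis for the nitrite reductase cofactor, had 2.96 and 2.72 CPM in zmlrl5 hair, against 47.8 and 54.4 CPM in wild type hair. Its log2 fold change was -4.17 ± 0.18 (SE, adjusted p = 2.49e-17), and in both genes every zmlrl5 value lay far below every wild type value.

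FDX6, a ferredoxin gene, had 32.7 and 32.5 CPM in zmlrl5 hair, against 91.5 and 82.1 CPM in wild type hair, and its log2 fold change was -1.41 ± 0.11 (SE, adjusted p = 8.93e-12). The gene fnr1, for the ferredoxin-NADP reductase that passes electrons to ferredoxin, had 51.7 and 51.3 CPM in zmlrl5 hair, against 98.5 and 108 CPM in wild type hair. Its log2 change was -1.004 ± 0.094 (SE, adjusted p = 8.71e-10). The plastid 6-phosphogluconate dehydrogenase gene pgd3, an enzyme of NADPH supply, had 95.1 and 89.4 CPM in zmlrl5 hair, against 135 and 154 CPM in wild type hair, a log2 change of -0.65 ± 0.093 (SE, adjusted p = 2.81e-06). In these 3 genes the genotypes did not overlap. Of 8 genes in the list of reductant supply, 4 were lower and 2 higher; the fourth lower member is the flavonoid gene A1, which entered through a synonym, FNR, and had 0 counts in both zmlrl5 libraries. Without A1, 3 of 7 were lower and 2 higher, and the summed level of the 8 genes overlapped between the genotypes, at 1737.5 and 1593 CPM in zmlrl5 hair and 1630.2 and 1654 CPM in wild type hair. The higher members, fdx3 (0.29 ± 0.077) and fdx2 (1.95 ± 0.66, log2 change ± SE), were not called without wild type replicate 2 (0.19 and 1.38) or without 1 of the zmlrl5 libraries. The call of A1 was lost without any 1 hair library.

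The transporter nrt2.2, which carries nitrate at low outside concentrations, had 0.0672 and 0.151 CPM in zmlrl5 hair, against 5.49 and 4.41 CPM in wild type hair. Its log2 fold change was -5.44 ± 0.69 (SE, adjusted p = 3.35e-07), and both zmlrl5 values rested on at most 2 counts. NAR2.1, the partner protein of such transporters, had 426 and 444 CPM in zmlrl5 hair, against 388 and 370.4 CPM in wild type hair, with a log2 change of 0.20 ± 0.084 (SE, adjusted p = 0.0914). NRT1.2 was not called either, at -0.14 ± 0.094 on the log2 scale.

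NNR1, named as an NADH nitrate reductase, moved the other way with 5.92 and 8.98 CPM in zmlrl5 hair, against 2.24 and 0.646 CPM in wild type hair, a log2 change of 2.43 ± 0.42 (SE, adjusted p = 4.19e-05). The molybdenum cofactor gene CNX5 (GRMZM2G160842) was lower, with 12.4 and 11.1 CPM in zmlrl5 hair, against 16.1 and 17.9 CPM in wild type hair, and the other ID of that name, GRMZM2G157836, was not called. The log2 change of the first was -0.53 ± 0.17 and its call was lost without wild type replicate 2 or zmlrl5 replicate 2 (-0.49 in each).

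Ammonium assimilation was mixed, with 3 of 12 genes lower and 3 higher, or 1 higher with all 14 libraries in the fit. A glutamine synthetase gene, gln1 (GRMZM2G098290), had 11.7 and 9.74 CPM in zmlrl5 hair, against 48.4 and 54.9 CPM in wild type hair, a log2 change of -2.27 ± 0.15 (SE, adjusted p = 5.16e-13). The glutamate dehydrogenase gene gdh1 had 47.1 and 44.6 CPM in zmlrl5 hair, against 94.6 and 126 CPM in wild type hair, a log2 change of -1.27 ± 0.10 (SE, adjusted p = 4.24e-11). Both were lower without overlap. The other glutamine synthetase genes included gln3, which was higher with 396 and 349 CPM in zmlrl5 hair, against 202 and 199.7 CPM in wild type hair, a log2 change of 0.89 ± 0.085 (SE, adjusted p = 1.28e-09). Of the more abundant gln1-3 (0.06 ± 0.073) and GLN6 (0.04 ± 0.072) neither was called. The asparagine synthetase gene asn3 had 8529.9 and 7961 CPM in zmlrl5 hair, against 6424 and 6186 CPM in wild type hair, a log2 change of 0.39 ± 0.066 (SE, adjusted p = 3.61e-05).

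**Figure D2:**
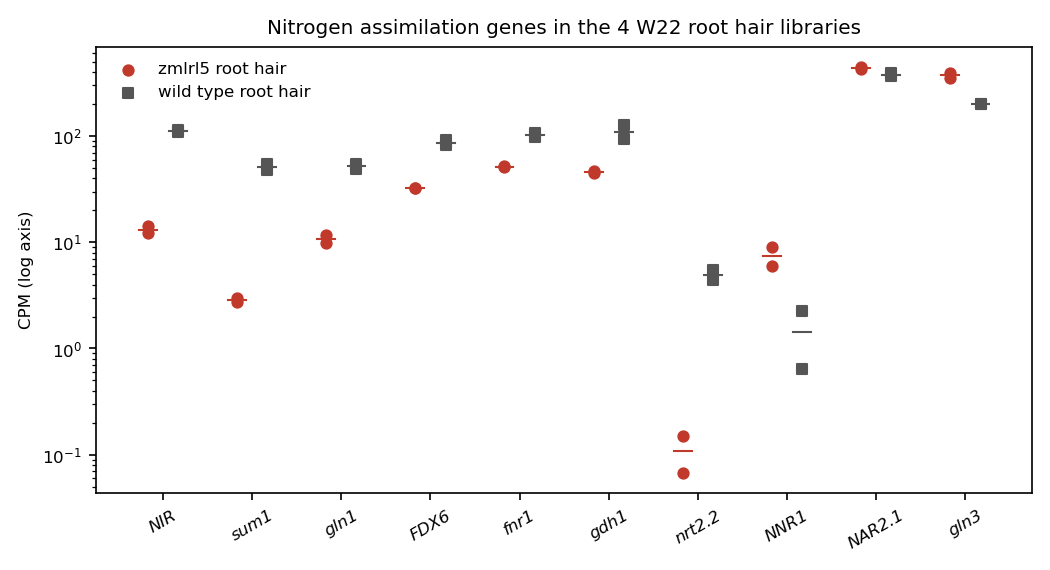
CPM on a log axis in each W22 root hair library for 10 nitrogen assimilation genes; red circles are zmlrl5 and grey squares wild type, and lines mark means. The first 7 genes are lower in both zmlrl5 libraries, with nrt2.2 near 0.1 CPM, whereas NNR1 and gln3 are higher and NAR2.1 is not called.

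Sulfate assimilation, which also uses siroheme and ferredoxin, did not follow a single direction: 4 of 13 genes were higher and 3 lower. The higher count was 1 without wild type replicate 1 or zmlrl5 replicate 1, 2 without wild type replicate 2 or zmlrl5 replicate 2 or in DESeq2, and 1 with all 14 libraries, and the lower count was 1 without wild type replicate 2 or zmlrl5 replicate 2 and with all 14 libraries. Sulfite reductase, sir, was higher with 38.9 and 41.1 CPM in zmlrl5 hair, against 25.9 and 30.2 CPM in wild type hair, a log2 change of 0.50 ± 0.10 (SE, adjusted p = 0.000419), while the reductase-like gene aprl2 was lower with 38.3 and 38.96 CPM in zmlrl5 hair, against 65.1 and 66.8 CPM in wild type hair.

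Of 11 genes for sugar transport and sucrose cleavage, 3 were lower and 2 higher, or 1 higher without wild type replicate 1, without zmlrl5 replicate 1 or with all 14 libraries. The soluble invertase gene ivr2 had 2263 and 2185 CPM in zmlrl5 hair, against 4903 and 5089.6 CPM in wild type hair, a log2 change of -1.17 ± 0.071 (SE, adjusted p = 5.9e-14). SH-1, a sucrose synthase gene, had 608 and 566 CPM in zmlrl5 hair, against 1365 and 1357 CPM in wild type hair, a log2 change of -1.21 ± 0.069 (SE, adjusted p = 1.56e-14). The wild type libraries stood at more than 2-fold the zmlrl5 level in both genes. Sucrose transporter gene sut1 was higher at a low level, with 1.08 and 1.89 CPM in zmlrl5 hair, against 0.506 and 0.215 CPM in wild type hair.

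Genes of organic acid and C4-type metabolism were lower in 5 of 14 cases and higher in 4, or 2 without wild type replicate 2, 1 without zmlrl5 replicate 2 and 2 with all 14 libraries. The cytosolic enzyme PEP carboxykinase, pck2, had 514 and 487 CPM in zmlrl5 hair, against 1006 and 1027 CPM in wild type hair, a log2 change of -1.02 ± 0.072 (SE, adjusted p = 1.72e-12). A malate dehydrogenase gene, mdh2, was lower at -0.61 ± 0.073 and a PEP carboxylase gene, pep7, at -0.59 ± 0.076 on that scale. The higher call of 3 of the 4 members, pep1, ME1 and C4ppdkZm1, rested on zmlrl5 replicate 2, as did those of the leaf genes described below. GAPC2, a cytosolic glyceraldehyde-3-phosphate dehydrogenase of glycolysis, had 2320.0 and 2064 CPM in zmlrl5 hair, against 3445 and 3379 CPM in wild type hair, a log2 change of -0.64 ± 0.068 (SE, adjusted p = 1.31e-08).

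In the list of hemoglobin and fermentation genes, 6 of 15 were lower and 2 higher, or 1 higher with all 14 libraries. The list was matched by name alone and took in IDs named glb1, glb2 and ALDH10A8, which may belong to neither class. Its counts therefore describe the names and not a checked gene class. Hb2 (GRMZM2G168898), for a plant hemoglobin, the class that scavenges nitric oxide, had 20.6 and 25.7 CPM in zmlrl5 hair, against 68.4 and 58.9 CPM in wild type hair, a log2 change of -1.46 ± 0.14 (SE, adjusted p = 1.75e-09). The pyruvate decarboxylase gene PDC (GRMZM2G087186) had 7.46 and 7.55 CPM in zmlrl5 hair, against 15.04 and 13.8 CPM in wild type hair. Alcohol dehydrogenase genes parted, with adh1 lower (-0.32 ± 0.081) and adh2 higher (0.35 ± 0.070, log2 fold change ± SE).

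Ribosomal protein genes gave the most one-sided list. Of 34 tested, 24 were lower (12.4% of all genes tested) and 0 were higher, and none was higher at an unadjusted p under 0.05 or in DESeq2. The list's median log2 fold change was -0.77, and 8 members were lower by 2-fold or more. Of the 24 lower members, 5 had a wild type mean under 5 CPM. With the 4 hair libraries fitted alone, 18 of 32 members tested were lower. The summed level of the 34 was 542 and 532 CPM in zmlrl5 hair, against 695 and 735 CPM in wild type hair. The small subunit gene rps27 had 8.27 and 7.17 CPM in zmlrl5 hair, against 18.1 and 19.1 CPM in wild type hair, a log2 change of -1.27 ± 0.14 (SE, adjusted p = 1.42e-08). The large subunit gene rpl35 had 13.4 and 13.4 CPM in zmlrl5 hair, against 22.9 and 28.3 CPM in wild type hair, a log2 change of -0.94 ± 0.13 (SE, adjusted p = 1.05e-06). The acidic stalk protein gene arpp3 had 15.7 and 17.7 CPM in zmlrl5 hair, against 28.2 and 31.3 CPM in wild type hair, a log2 change of -0.84 ± 0.11 (SE, adjusted p = 9.36e-07). The zmlrl5 values were below the wild type values in all 3. RPL10, the most abundant called member in CPM, changed least among the called, with 328 and 312 CPM in zmlrl5 hair, against 379.6 and 377 CPM in wild type hair and a log2 change of -0.24 ± 0.076 (SE, adjusted p = 0.0191).

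The lower count was 22 to 23 when any 1 of the 4 hair libraries was left out, and 18 when all 14 libraries were fitted together. Many ribosomal proteins are encoded by near-identical copies, so reads may be divided or lost between them. In B73 root, 1 of the 34 was lower and 0 were higher between zmlrl5 and wild type, and the median there was -0.11. The difference between the hair effect and the root effect was itself called for 16 members, all lower in hair. Markers of dividing cells were split. DNA replication genes gave 0 calls in 9 genes, also unadjusted and in DESeq2. Their summed level overlapped, at 19.7 and 24.1 CPM in zmlrl5 hair and 20.2 and 25.7 CPM in wild type hair. Of 10 core histone genes 3 were higher and 1 lower, or 1 and 0 with all 14 libraries in the fit. The summed level of the core histones did not overlap, at 999 and 1030.5 CPM in zmlrl5 hair, against 779 and 813 CPM in wild type hair.

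**Figure D3:**
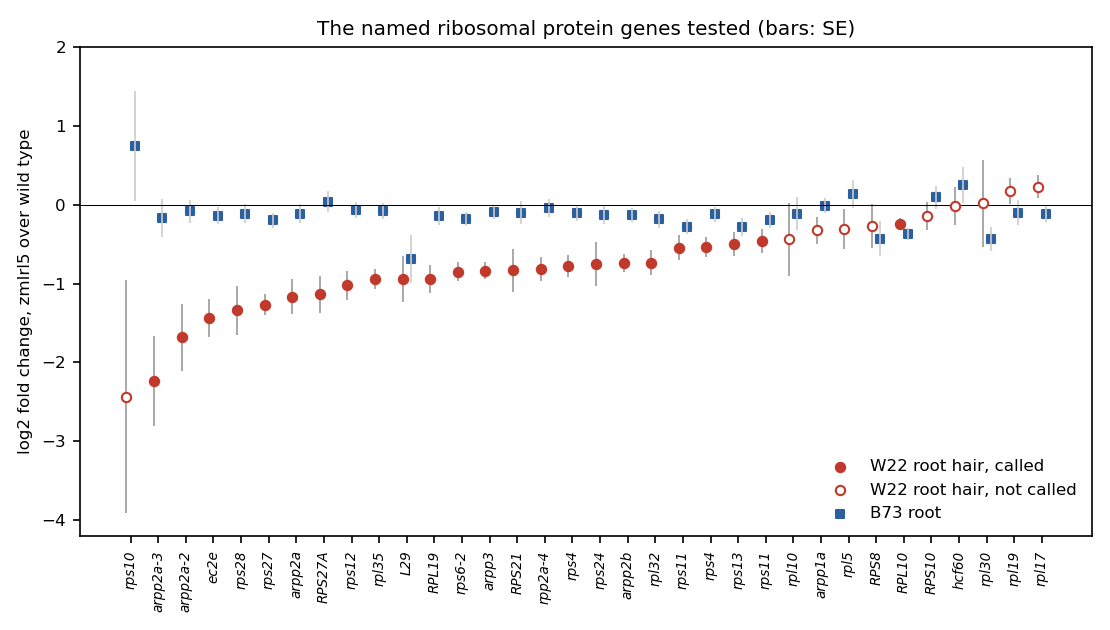
Log2 fold change of zmlrl5 over wild type, with its SE, for the 34 named ribosomal protein genes tested; red circles are W22 root hair, filled where called, and blue squares are B73 root. Filled circles sit below 0 in 24 genes, while the squares lie near 0.

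Of 28 aquaporin genes tested, 10 were higher (10.1% of all genes tested) and 5 lower (12.4% of all genes tested). Of the 9 named as plasma membrane intrinsic proteins (PIP), a subgroup singled out after its values were seen, 8 were higher and PIP2-6 (-1.21 ± 0.18, log2 fold change ± SE) was lower. Without any 1 hair library 7 to 8 of them were higher, and 5 with all 14 libraries. PIP2-4, a plasma membrane water channel, had 166 and 158 CPM in zmlrl5 hair, against 44.4 and 43.8 CPM in wild type hair, a log2 change of 1.88 ± 0.083 (SE, adjusted p = 3.42e-17). PIP1-3 had 133 and 118 CPM in zmlrl5 hair, against 58.1 and 60.1 CPM in wild type hair, a log2 change of 1.09 ± 0.085 (SE, adjusted p = 1.64e-11). Both genes were higher in each zmlrl5 library than in either wild type library. PIP2-1, among the aquaporin genes with the most reads, had 3082 and 2878 CPM in zmlrl5 hair, against 2172 and 2164 CPM in wild type hair and rose by 0.46 ± 0.067 on the log2 scale. Lsi1, a silicon channel of the same superfamily, had 1228 and 1077 CPM in zmlrl5 hair, against 711 and 695 CPM in wild type hair, a log2 change of 0.71 ± 0.077 (SE, adjusted p = 1.77e-08). Among tonoplast channels, TIP4-3 had 40.5 and 40.5 CPM in zmlrl5 hair, against 201 and 181 CPM in wild type hair, a log2 change of -2.24 ± 0.10 (SE, adjusted p = 9.33e-17), and TIP4-2 was also lower (-1.35 ± 0.22). Leaving out any 1 hair library gave 9 to 11 higher and 5 to 6 lower aquaporin genes, and all 14 libraries gave 7 and 3.

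BURP3, of the plant BURP-domain family, showed the largest rise in CPM of any named gene. It had 5058 and 4779 CPM in zmlrl5 hair, against 1174 and 1167 CPM in wild type hair, a log2 change of 2.07 ± 0.066 (SE, adjusted p = 1.46e-20). Among genes that respond to water deficit or abscisic acid in plants, dehydrin3 had 71.2 and 61.5 CPM in zmlrl5 hair, against 18.4 and 17.97 CPM in wild type hair, a log2 change of 1.87 ± 0.10 (SE, adjusted p = 3.51e-15). The gene aba1, also listed as asr1, of the family induced by abscisic acid, stress and ripening, had 2969 and 3054 CPM in zmlrl5 hair, against 1568 and 1554 CPM in wild type hair, a log2 change of 0.95 ± 0.067 (SE, adjusted p = 1.8e-12). All 3 were higher in both zmlrl5 libraries. Genes for abscisic acid and gibberellin synthesis and perception were lower in 4 of 18 cases, or 2 with all 14 libraries, among them the abscisic acid receptor gene PYL3 (GRMZM2G047677) with 11.7 and 13.9 CPM in zmlrl5 hair, against 25.9 and 21.8 CPM in wild type hair, and 0 were higher in edgeR or DESeq2, with 1 higher at an unadjusted p under 0.05.

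The genes mha2 (-0.31 ± 0.068) and mha4 (-0.45 ± 0.076, log2 fold change ± SE), for plasma membrane H+-ATPases that energize uptake, were both lower. Of all 6 proton pump genes, 4 were lower (12.4% of all genes tested) and 1 higher (10.1% of all genes tested). With all 14 libraries 1 was lower, and the higher member, H+-PPase (0.47 ± 0.13), was not called there or without wild type replicate 1 or zmlrl5 replicate 1. Of 4 phosphate transport genes tested, 2 were lower and 1 higher. The phosphate transporter genes pht9, with 1442 and 1331 CPM in zmlrl5 hair, against 2051 and 2039 CPM in wild type hair, and pht2, with 690.4 and 632 CPM in zmlrl5 hair, against 904 and 958 CPM in wild type hair, were both lower, at -0.56 ± 0.068 and -0.49 ± 0.078 on that scale. The higher member, pho1, had 0.471 and 0.302 CPM in zmlrl5 hair, against 0.0723 and 0 CPM in wild type hair, and its call was lost without wild type replicate 2, without zmlrl5 replicate 1 and with all 14 libraries. Among 22 potassium transport genes, 4 were lower and 4 higher, or 2 higher without wild type replicate 2 and 2 in each direction with all 14 libraries, with HAK9 lower at -0.98 ± 0.11 and HAK24 higher at 0.69 ± 0.095. Of 10 genes for iron and phytosiderophores, the chelators that grasses secrete to take up iron, 4 were higher and 1 lower. The uptake transporter of the iron chelate, ys1, had 683 and 586 CPM in zmlrl5 hair, against 493 and 497 CPM in wild type hair, a log2 change of 0.36 ± 0.084 (SE, adjusted p = 0.00172) that was 0.18 and not called without zmlrl5 replicate 1. YS3, needed to release phytosiderophores, had 6.79 and 5.29 CPM in zmlrl5 hair, against 1.16 and 1.18 CPM in wild type hair, a log2 change of 2.36 ± 0.40 (SE, adjusted p = 5.23e-05). The metal transporter gene Nramp1 was lower, with 123 and 101 CPM in zmlrl5 hair, against 172 and 181 CPM in wild type hair.

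Among 37 ethylene genes, 10 were higher and 3 lower. EREB179, of the ethylene response factor family, had 19.3 and 17.97 CPM in zmlrl5 hair, against 6.07 and 2.85 CPM in wild type hair, a log2 change of 2.11 ± 0.24 (SE, adjusted p = 3.54e-08). ERF1 had 12.5 and 11.9 CPM in zmlrl5 hair, against 4.699 and 2.58 CPM in wild type hair, a log2 change of 1.78 ± 0.23 (SE, adjusted p = 4.58e-07). The ethylene synthesis gene acs7, an ACC synthase, had 16.3 and 15.1 CPM in zmlrl5 hair, against 5.35 and 6.08 CPM in wild type hair, a log2 change of 1.45 ± 0.16 (SE, adjusted p = 2.21e-08), and ACS6 rose too (1.10 ± 0.21). These 4 were higher without overlap, whereas EREB85 was lower, with 16.5 and 18.6 CPM in zmlrl5 hair, against 60.4 and 64.9 CPM in wild type hair and a log2 change of -1.84 ± 0.13 (SE, adjusted p = 1.92e-12). The count of higher members was 8 to 10 without any 1 hair library and 7 with all 14 libraries.

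Other transcription factor families, and further hormone lists after them, were counted as well. These counts are read against the 10.1% higher and 12.4% lower of all genes tested. MYB genes were higher in 9 of 46 cases and lower in 4. The higher count was 5 without wild type replicate 1 and 4 without wild type replicate 2, without zmlrl5 replicate 2 or with all 14 libraries, where the lower count was 2. Myb56 had 26.1 and 23.1 CPM in zmlrl5 hair, against 4.99 and 5.38 CPM in wild type hair, a log2 change of 2.24 ± 0.16 (SE, adjusted p = 2.25e-12), and MYBR100 had 12.4 and 8.68 CPM in zmlrl5 hair, against 1.81 and 2.42 CPM in wild type hair, a log2 change of 2.30 ± 0.27 (SE, adjusted p = 6.07e-08). NAC genes were higher in 6 of 22 cases and WRKY genes in 4 of 17, with 2 and 1 lower. Without zmlrl5 replicate 1, 3 NAC genes were higher, and with all 14 libraries 1 WRKY gene was higher. The lower WRKY count was 2 without wild type replicate 1, wild type replicate 2 or zmlrl5 replicate 1. In the bHLH family, to which LRL proteins belong, 6 of 38 were higher (10.1% of all genes tested) and 5 lower (12.4% of all genes tested). The higher count was 3 without wild type replicate 1 or with all 14 libraries, and the lower count 8 without zmlrl5 replicate 1. bHLH7 had 0.0672 and 0 CPM in zmlrl5 hair, against 1.37 and 1.51 CPM in wild type hair, a log2 change of -5.11 ± 0.76 (SE, adjusted p = 4.72e-06), and rested on at most 1 count per zmlrl5 library. bHLH114 was higher, with 44.3 and 44.6 CPM in zmlrl5 hair, against 22.5 and 22.4 CPM in wild type hair, a log2 change of 0.99 ± 0.11 (SE, adjusted p = 1.9e-08). The gene pac1, a WD40 regulator that works with MYB and bHLH factors in the anthocyanin pathway, had 3.03 and 2.87 CPM in zmlrl5 hair, against 15.98 and 14.3 CPM in wild type hair, a log2 change of -2.35 ± 0.20 (SE, adjusted p = 9.08e-11).

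Jasmonate genes were split 4 higher and 4 lower of 32, with the lipoxygenase gene lox6 (9.28 and 10.5 CPM in zmlrl5 hair, against 23.1 and 27.3 CPM in wild type hair) among the lower, and the higher count was 1 without wild type replicate 1, 2 without wild type replicate 2 and 1 with all 14 libraries. Auxin genes were higher in 5 of 30 cases and lower in 3, or 2 higher without wild type replicate 2, 1 lower without zmlrl5 replicate 1, and 3 higher and 1 lower with all 14 libraries. Cytokinin genes were 2 higher and 2 lower of 19, or 4 higher without zmlrl5 replicate 2 and 1 lower with all 14 libraries.

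The phenylpropanoid pathway, which makes lignin precursors and wall phenolics, had 5 of 13 genes higher and 3 lower, or 3 higher without wild type replicate 1 and 2 with all 14 libraries. CCOAOMT2, a caffeoyl-CoA O-methyltransferase gene, had 433 and 430.1 CPM in zmlrl5 hair, against 168 and 169.6 CPM in wild type hair, a log2 change of 1.35 ± 0.075 (SE, adjusted p = 6.99e-15). The methyltransferase gene CAOMT had 869.6 and 804 CPM in zmlrl5 hair, against 478 and 465 CPM in wild type hair, and the cinnamoyl-CoA reductase gene CCR had 6438 and 6160.1 CPM in zmlrl5 hair, against 4364 and 4313 CPM in wild type hair. Both rose, by 0.83 ± 0.070 and 0.54 ± 0.066 on the log2 scale. The laccase genes on the lists, whose enzymes oxidize lignin precursors in the wall, included decreases of more than 2-fold: LAC1 (GRMZM2G400390) had 365 and 319 CPM in zmlrl5 hair, against 799.9 and 786 CPM in wild type hair, a log2 change of -1.21 ± 0.088 (SE, adjusted p = 3.33e-12), and lac3 had 29.8 and 30.2 CPM in zmlrl5 hair, against 64.5 and 68.6 CPM in wild type hair, a log2 change of -1.15 ± 0.12 (SE, adjusted p = 5.29e-09). The flavonoid gene CHI, for chalcone isomerase, was higher with 855 and 806 CPM in zmlrl5 hair, against 417 and 383 CPM in wild type hair.

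Glutathione transferases, detoxifying enzymes, were lower in 8 of 31 cases, or 4 with all 14 libraries, and higher in 3. Here gst8 had 86.8 and 70.5 CPM in zmlrl5 hair, against 241 and 236 CPM in wild type hair, a log2 change of -1.60 ± 0.088 (SE, adjusted p = 7.86e-15). In gst31, values were 95.9 and 82.00 CPM in zmlrl5 hair, against 262 and 269 CPM in wild type hair, a log2 change of -1.58 ± 0.088 (SE, adjusted p = 8e-15). On the other side, gst23 had 61.4 and 57.3 CPM in zmlrl5 hair, against 27.5 and 27.02 CPM in wild type hair and rose by 1.12 ± 0.11. Benzoxazinoid genes, for the defence compounds of maize seedlings, were lower in 4 of 11 cases, with bx6 at 0.471 and 0.604 CPM in zmlrl5 hair, against 3.98 and 5.597 CPM in wild type hair. The beta-glucosidase gene glu1, whose enzyme releases active benzoxazinoids, was higher with 8703 and 8891 CPM in zmlrl5 hair, against 5504 and 6025 CPM in wild type hair, a log2 change of 0.61 ± 0.063 (SE, adjusted p = 8.12e-09). Pathogenesis-related genes split 3 and 3 of 7, with PR-5 higher (247 and 249 CPM in zmlrl5 hair, against 108 and 119.9 CPM in wild type hair) and PR10 lower (3036 and 2948 CPM in zmlrl5 hair, against 3566 and 3704 CPM in wild type hair). Among heat shock genes, 5 of 23 were higher and 3 lower, or 0 lower without zmlrl5 replicate 2 and 1 with all 14 libraries, and HSP90-1, a chaperone gene, had 164 and 166 CPM in zmlrl5 hair, against 68.2 and 74.96 CPM in wild type hair, a log2 change of 1.21 ± 0.088 (SE, adjusted p = 3.5e-12).

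The catalase gene Cat0, also listed as cat2, had 22.5 and 24.5 CPM in zmlrl5 hair, against 105 and 116 CPM in wild type hair, a log2 change of -2.23 ± 0.13 (SE, adjusted p = 4.46e-14). The phytate synthesis gene ipk1A, an inositol phosphate kinase, had 1.34 and 1.96 CPM in zmlrl5 hair, against 6.87 and 6.404 CPM in wild type hair. MRP1, also listed as mrpa1, of the multidrug resistance-associated transporters, rose to 28.5 and 32.01 CPM in zmlrl5 hair, against 6.36 and 4.63 CPM in wild type hair. On the peroxidase list, PER2 had the largest absolute drop among named genes, with 26089 and 25943 CPM in zmlrl5 hair, against 28676 and 30478 CPM in wild type hair, although its log2 change was -0.19 ± 0.063 (SE, adjusted p = 0.0308) and its call was lost without wild type replicate 2 (-0.19).

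**Figure D4:**
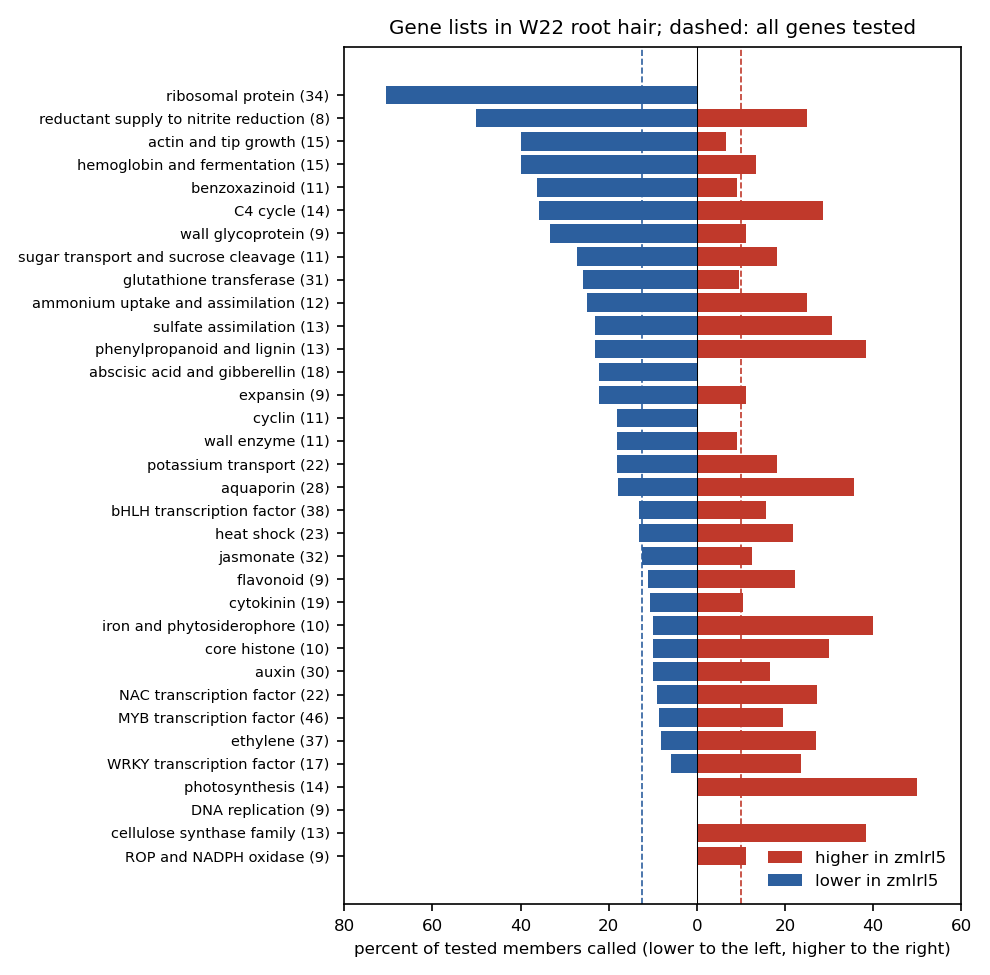
Percent of tested members called higher (red, to the right) and lower (blue, to the left) in zmlrl5 root hair for each list with 8 or more members tested, the number tested in brackets; dashed lines give the shares over all genes, 10.1% higher and 12.4% lower. Ribosomal protein genes reach farthest to the left and photosynthesis genes, which rest on 1 zmlrl5 library, farthest to the right.

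Markers of other tissues showed where 1 library stood apart. Photosynthesis genes were higher in 7 of 14 cases, and 0 were lower, whether adjusted, unadjusted or in DESeq2. Their summed level was 95.5 CPM in zmlrl5 replicate 1 and 173 CPM in zmlrl5 replicate 2, against 95.3 and 80.6 CPM in wild type hair. A chlorophyll-binding protein gene, Cab-m7, had 6.86 and 18.3 CPM in zmlrl5 hair, against 6.22 and 5.17 CPM in wild type hair. Without zmlrl5 replicate 2 the list had 0 calls, without wild type replicate 2 it had 2, and without zmlrl5 replicate 1 it had 11. The part of replicate 2 in the higher C4-type genes pep1, ME1 and C4ppdkZm1 was not tested beyond leaving it out, which ended their calls at 0.02, 0.63 and -0.08 on the log2 scale. Without wild type replicate 2, ME1 (0.96) and C4ppdkZm1 (0.56) were not called either.

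Of 2 root cap genes 1 was lower, or 2 without wild type replicate 2 or zmlrl5 replicate 1 and 0 with all 14 libraries. The gene called, RCP1, had 73.4 and 77.8 CPM in zmlrl5 hair, against 97.4 and 104 CPM in wild type hair, a log2 change of -0.41 ± 0.096 (SE, adjusted p = 0.00169), and both members of that list summed to 104 and 107 CPM, against 137 and 140.0 CPM in wild type hair. Of 9 expansin genes, which mark elongating cells, 2 were lower and 1 higher, and together they summed to 58.3 and 55.1 CPM in zmlrl5 hair and 97.8 and 91.5 CPM in wild type hair. In the xylem list the 2 lower members of 5 were IDs named LAC1, of which 1 was lower with all 14 libraries, while CesA12 and cesa11, its secondary wall genes, had under 2 CPM in every hair library. The xylem list summed to 699 and 626 CPM in zmlrl5 hair, against 1191 and 1166 CPM in wild type hair. Before TMM, the list summed to 929 and 896 CPM in W22 wild type hair. It summed to 388 and 452 CPM in B73 root, 270 and 292 CPM in B73 wild type root, and 53.9 and 53.5 CPM in B73 root hair. The sum was thus higher in W22 hair than in root and is not read as an amount of xylem tissue. Of 5 endodermis genes 1 was lower, or 0 in DESeq2, and 0 were higher. They summed to 32.3 and 35.1 CPM in zmlrl5 hair, against 36.7 and 37.5 CPM in wild type hair. The endodermis gene SCR was under 1 CPM in each hair library. The part of adhering root tissue in the lower genes was not tested.

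Large changes also fell on IDs without a name in the table. GRMZM2G020940 had 121 and 111 CPM in zmlrl5 hair, against 5.35 and 5.22 CPM in wild type hair, a log2 change of 4.46 ± 0.11 (SE, adjusted p = 2.93e-23). GRMZM2G090226 had 114 and 119 CPM in zmlrl5 hair, against 3.54 and 2.74 CPM in wild type hair, a log2 change of 5.23 ± 0.14 (SE, adjusted p = 1.1e-22). GRMZM5G892338 had 1.48 and 1.96 CPM in zmlrl5 hair, against 60.2 and 52.4 CPM in wild type hair, a log2 change of -5.03 ± 0.20 (SE, adjusted p = 1.07e-17). In each, 1 genotype held nearly all the reads.

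The named gene sfp5 (0.941 and 0.529 CPM in zmlrl5 hair, against 28.3 and 25.2 CPM in wild type hair) and the IDs GRMZM2G102959 (1.28 and 1.06 CPM in zmlrl5 hair, against 24.1 and 25.1 CPM in wild type hair) and AC204690.4_FG005 (0.202 and 0.302 CPM in zmlrl5 hair, against 12.7 and 11.1 CPM in wild type hair) were lower on a similar scale. Among called genes, 39 had no count in wild type hair and 38 had none in zmlrl5 hair. Of these, GRMZM5G867919 had 15 and 23 counts in wild type hair, which makes it at least 10.9-fold lower in zmlrl5 against the floor of 3 counts over the group. AC233863.1_FG001 had 10 and 12 counts in zmlrl5 hair and was at least 8.55-fold higher by the same floor.

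Libraries that this comparison did not use place its genes by tissue. In B73 root hair against B73 root, 34.0% of genes tested were higher in hair and 39.2% lower. Of the genes higher by 2-fold or more in zmlrl5 hair, 26.4% were higher in B73 hair than in B73 root and 54.1% were lower. Among those lower by 2-fold or more in zmlrl5 hair, 23.9% were higher in B73 hair than root and 63.5% were lower. Over all genes tested in both comparisons the shares were 35.9% and 39.0%. Genes that changed strongly in either direction were thus mostly ones with less signal in B73 hair than in root. sfp5 and nitrite reductase differ in this respect, with NIR at 1.54 and sfp5 at 3.48 on the log2 scale of B73 hair over root.

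The zmlrl5 effect was also measured in root, where line, tissue and the label knock out differ together from the hair libraries and cannot be told apart. Removal of hairs is stated in the titles of the B73 wild type root libraries and not in the titles of B73 zmlrl5 root. There 1081 genes (4.27%) were higher and 1034 (4.09%) lower in zmlrl5. Of genes lower in zmlrl5 hair, 11.7% were lower and 5.45% higher in zmlrl5 root. Of genes higher in zmlrl5 hair, 10.8% were higher and 5.93% lower in zmlrl5 root. Read from the other side, 35.4% of the 1034 lower root genes were lower in hair, and 25.5% of the 1081 higher root genes were higher in hair.

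The difference between the effects was called for 3701 genes (14.6%), with 1650 (6.52%) higher and 2051 (8.11%) lower in hair than in root. NIR changed by 0.37 and sum1 by -0.02 in root on the log2 scale, where neither was called, and the differences were -3.44 (adjusted p = 1.56e-10) and -4.15 (adjusted p = 3.12e-12). BURP3 rose in root by only 0.22, a difference of 1.85 (adjusted p = 4.41e-16). Cel4 went the other way round, with a log2 change of -6.27 ± 0.16 (SE, adjusted p = 3.24e-23) in root against -0.30 ± 0.068 in hair. For gst31 both effects were downward, -1.22 in root and -1.58 in hair.

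**Figure D5:**
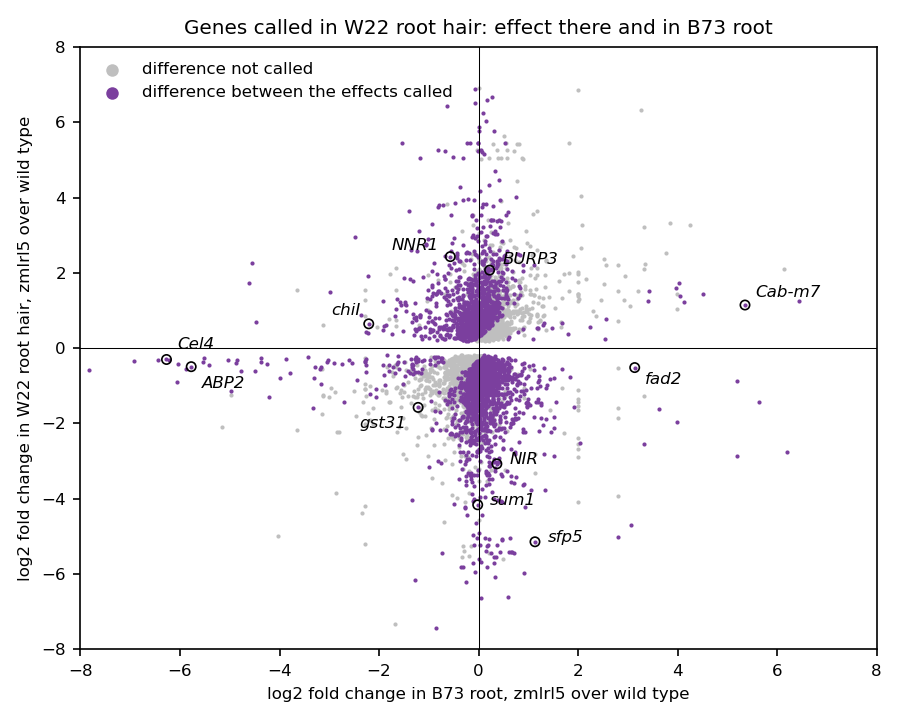
Log2 fold change of zmlrl5 over wild type in W22 root hair (vertical axis) against that in B73 root (horizontal axis) for 5700 of the 5703 genes called in hair, 3 lying outside the axes; purple marks genes whose 2 effects differ. Many genes, such as NIR and sum1, spread along the vertical axis with little change in root, whereas Cel4 and ABP2 lie far to the left.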

How the data were processed

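Transcripts were counted in 4 W22 root hair libraries, with 10 further libraries as context or in alternatives. The deposited values are raw counts of reads per gene; the authors' tools were TopHat2, HTSeq and DESeq, per the submitters' processing notes. Versions, genome build and strand setting: not given in the sources used here. Without strand, reads of overlapping or antisense genes cannot be told apart. TRIzol is named for RNA extraction in the labels' protocols and a Qiagen kit in the design text.

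From the deposited counts, the 8 libraries of the zmlrl5 set were filtered with filterByExpr (minimum count 10, minimum total 15), scaled by TMM and fitted by group means with edgeR 4.0.16 (R 4.3.3, limma 3.58.1; glmQLFit and glmQLFTest, two-sided). The B73 tissue set of 6 libraries was fitted likewise. Adjusted p-values are Benjamini-Hochberg values over all genes tested. The SE is the absolute log2 fold change divided by the square root of F. Floors cover counting error only. The test was tried on simulated data.

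RefSeq's gene table (assembly Zm-B73-REFERENCE-NAM-5.0) matched 18997 of 39305 IDs, and 2652 received a name: the symbol for 331, otherwise the first synonym that is not a clone or marker. Named in the text were the 12 largest called changes per direction with at least 5 CPM and no overlap (6 IDs regardless of name), the 6 largest CPM differences, the 5 largest differences from root, 4 IDs with 0 counts in a group, and members of 44 gene lists, from which the text selects. Lists were matched by name or given as IDs, and the function of each member was not checked. The members and lists were chosen with earlier results of these data known. DESeq2 1.42.0, other scalings, filters, library sets, left-out libraries and a replicate block were alternatives.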

Additional observations from a re-analysis of the deposited data

Results flagged for a closer look

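In the 41 genes named for a large change in hair or for a large difference from root, the selection itself favours a difference, so their count stands as a description. In 37 of them, against 14.6% of all genes tested, the zmlrl5 effect in W22 root hair differed from that in B73 root by edgeR's test of the difference (adjusted p under 0.05). Differences are log2 fold change in hair minus that in root, and line, tissue and mutant label cannot be told apart in them.
Negative differences, where the effect in hair lay below that in root, were largest at -6.28 for sfp5, -5.95 for BURP9, -4.21 for Cab-m7, -4.15 for sum1, -3.66 for fad2 and -3.44 for NIR. They were -3.13 for Cat0, -2.21 for pac1, -2.21 for hvp1, -2.11 for Cel24A and -1.98 for ipk1A. The smallest were -1.71 for gln1, -1.08 for ivr2, -1.06 for SH-1, -0.56 for exg1 and -0.31 for GAPC2. Positive differences were largest at 6.33 for HAK21, 5.97 for Cel4, 5.28 for ABP2, 3.00 for NNR1, 2.85 for chiI and 2.53 for MRP1. They were 2.32 for Myb56, 2.197 for MYBR100, 2.14 for MED6.1, 1.91 for m20, 1.86 for dehydrin3 and 1.85 for BURP3. Next came 1.76 for PIP2-4, 1.65 for PER2, 1.54 for EREB179, 1.33 for ERF1 and 0.66 for ap1. The smallest were 0.62 for aba1, 0.56 for glu1, 0.48 for CCR and 0.34 for asn3. For 6 of these genes, both effects were called and had opposite signs.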

How the results depend on the processing

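The W22 root hair counts, 2563 higher and 3140 lower, kept within 1.5 times under other scalings, filters, DESeq2 and the 4 hair libraries alone, but with all 14 libraries in the fit 1223 were higher and 2010 lower, and the cause was not tested. Of the named genes and list members followed, 104 lost their call in that fit and 203 kept their status. The 203 include genes called in neither fit, such as rth3. Without any 1 hair library, 1788 to 2101 were higher and 2868 to 3429 lower, and past 2-fold 684 to 909 were higher and 1180 to 1272 lower. In B73 root, leaving out 1 library gave 440 to 837 higher and 571 to 757 lower, and past 2-fold 163 to 244 higher and 304 to 373 lower. C4ppdkZm1 had log2 changes of -0.0759 to 1.145 without 1 library, reversing without zmlrl5 replicate 2, the library with the higher photosynthesis transcripts. Each fit without 1 library leaves a group with 1 sample, which is assumed to vary like the other groups. With the replicate number as a block, 2149 genes were higher and 2689 lower in hair. Deviations of same-numbered libraries did not go together across genes (correlation -0.05 in hair and -0.01 in root), and the main fit did not pair them. With 2 libraries per genotype, this cannot show whether same-numbered libraries were handled together. Depth limits genes near 3 counts, such as nrt2.2 and bHLH7 in zmlrl5 hair.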

Other observations

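The called genes were also placed by their order along the chromosomes of the RefSeq assembly, in a look chosen after the data were seen. Of the genes higher by 2-fold or more that could be placed, 13.3% (66 of 495) had a direct neighbour in the same set, against 6.2% of all placed genes. For genes lower by 2-fold or more the shares were 10.2% (76 of 748) and 9.4%. In runs of 50 consecutive placed genes, the median run held 4 genes called past 2-fold and the 99th percentile was 11. The fullest run held 18, of which 8 were higher and 10 lower in zmlrl5 hair. It included MYBR100 and GRMZM2G076562 among the higher, and pac1, GRMZM2G021270 and the low-count bHLH gene bHLH53 among the lower. In B73 root, 2 of the 18 were called, GRMZM2G041761 with a log2 change of 3.27 (edgeR adjusted p = 0.0039) and 6.34 in hair, and GRMZM2G057717 with 3.05 (edgeR adjusted p = 0.0065) and -4.72 in hair.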
